A study of Sus scrofa with 11 samples.

Results

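Genes of the cells that wrap small vessels were followed in the back muscle of 11 pigs. The set holds 8 of the 25322 genes in the deposited table. KCNJ8 and ABCC9 encode the pore and the sulfonylurea receptor of the vascular ATP-sensitive potassium (KATP) channel, PDGFRB, NOTCH3 and MCAM encode receptors of mural cells, and CNN1, SMTN and TAGLN encode actin-associated proteins of smooth muscle. The members were taken by gene symbol, and each of the 8 symbols matched 1 pig Ensembl gene ID. They were chosen by gene function together with their fold changes in the same fibre-group contrast, so their group differences describe these pigs and support nothing further. No sequences were at hand for the members, and none are shown.

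Mural cells are the pericytes of capillaries and the smooth muscle cells of arterioles. Endothelial PDGF-B recruits them through PDGFRB, Notch ligands on endothelium act on their NOTCH3, and the contractile proteins set vessel tone. A KATP channel made of the KCNJ8 and ABCC9 proteins opens when cellular energy falls and relaxes the vessel. In muscle fibres the ABCC9 protein also pairs with another pore, encoded by KCNJ11, so ABCC9 is not particular to vessels.

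RNA came from the longissimus lumborum of female pigs aged 23 weeks, which the submitters sorted into groups by fibre typing. The 7 pigs labelled fibre1 had over 17% type I (slow, oxidative) and under 70% type IIB (fast, glycolytic) fibres. The 4 pigs labelled fibre2B had under 8% type I and over 70% type IIB fibres. No treatment is labelled, and breed is not given in the sources used here. Each pig is a separate sample with 1 column of estimated read counts, whole tissue was sequenced, and fewer cells of a type and less RNA per cell cannot be told apart.

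Total counts ran from 14832736 to 36374829 per pig. Values below are CPM, read counts divided by the library total and multiplied to a common scale after TMM adjustment of the totals, and they are not corrected for gene length, so levels are compared between pigs and not between genes. Fibre1 pigs 5 and 6 stood apart, with 45.2% and 44.1% of counts on 10 nuclear genes of highest abundance, where the remaining 9 pigs had 29.5% to 36.8%. The groups were checked on slow-fibre genes: the ID listed as MYH6, a cardiac myosin heavy chain gene close to slow MYH7, was higher in every fibre1 pig than in any fibre2B pig, and the slow troponin gene TNNT1 had a log2 fold change of 1.06 ± 0.41 (SE) that was not called (edgeR adjusted p = 0.107). Among the other fibre genes, fast MYL11 had a log2 fold change of 0.10 ± 0.24 and skeletal actin ACTA1 one of 0.51 ± 0.28, neither called, and MYL11 fell on the other side of 0 in some settings. All 8 tested genes in a list of fast and slow fibre markers had positive values, with a median of 0.755, and edgeR called 0 of them. Fast ATP2A1 had 0.754 ± 0.34 and slow TNNC1 0.755 ± 0.44, so positive values were not particular to slow-fibre genes.

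The label of the set was checked on markers of the same cells. Of the pericyte markers outside the set, CSPG4, ANPEP, HIGD1B and NDUFA4L2 were measured, at 1.17 to 3.68 CPM in fibre1 and 2.44 to 2.93 CPM in fibre2B on average, while RGS5 and COX4I2 had no row with that symbol. Of the smooth muscle markers, ACTA2 ran from 34.8 to 82.1 CPM in the fibre1 pigs and from 35.6 to 60.2 CPM in the fibre2B pigs. MYH11, the smooth muscle myosin heavy chain, had only 1 to 29 counts per pig, and MYLK, its light chain kinase, 0 to 7 counts, with 4 of the 11 pigs at 0. MYL9 and LMOD1 had no row with that symbol. ACTA2 is nearly identical to ACTA1, which averaged 95527 CPM in fibre1, so reads could be shared between them and its counts are uncertain. The pericyte markers were therefore present at low levels, while 2 defining smooth muscle genes were near 0 in these counts.

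The channel pore gene KCNJ8 was lower in fibre1, and no other member was called. On average ABCC9 and TAGLN were also lower in fibre1, and PDGFRB, NOTCH3, MCAM, CNN1 and SMTN higher, and edgeR called none of these 7. The level of KCNJ8 in fibre2B was 1.71 times that in fibre1 by the fit (log2 fold change -0.78, SE 0.21; edgeR quasi-likelihood test, Benjamini-Hochberg adjusted p = 0.038). That is 1 of 8 members called, against 9.01% of the 11329 genes tested; 1 of 8 was higher in fibre2B, against 4.63%, and 0 of 8 were higher in fibre1, against 4.38%. KCNJ8 was also the 1 member whose groups did not overlap, against 7.55% of all genes tested (4.15% higher in fibre2B and 3.4% higher in fibre1). A positive log2 fold change was found in 5 of 8 members and 50.7% of all genes tested. The contrast that chose the members gave these counts, so nothing is read from them. All 8 members passed the filter on low counts. DESeq2 called 3 members (KCNJ8, MCAM and CNN1), and limma-voom called 0 (KCNJ8 adjusted p = 0.0511). The members' median log2 fold changes were -0.62 for the 2 channel genes, 0.34 for the 3 receptors and 0.27 for the 3 contractile genes, beside 0.0073 over all genes tested.

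**Figure D1:**
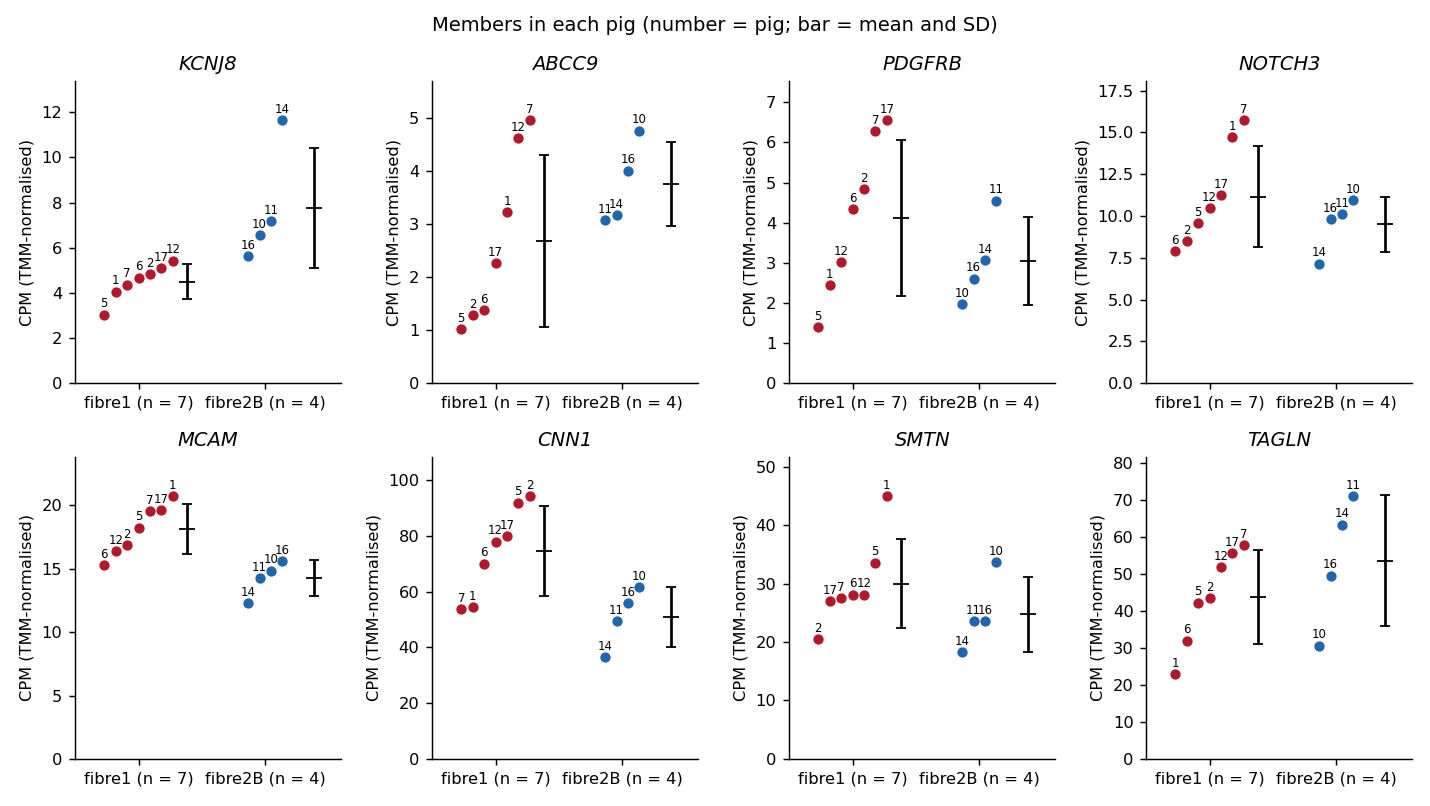
TMM-normalised CPM of the 8 members in each pig, with 1 panel per gene, CPM from 0 on the vertical axis and the 2 groups side by side; numbers name the pigs and bars give the mean and SD. For KCNJ8 the 7 fibre1 pigs, at 3.04 to 5.43 CPM, lie below the 4 fibre2B pigs, at 5.63 to 11.6 CPM, and the groups overlap in the other 7 panels.

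KCNJ8 (ENSSSCG00000000573) encodes Kir6.1, the pore of the channel. In the 7 fibre1 pigs it ran from 3.04 CPM in pig 5 through a median of 4.68 to 5.43 CPM in pig 12. The fibre2B pigs had 6.56 CPM in pig 10, 7.20 in pig 11, 11.6 in pig 14 and 5.63 in pig 16. All 4 fibre2B pigs were thus above all 7 fibre1 pigs, by a narrow gap at pig 12 and pig 16, and pig 14 was the highest. Means were 4.50 ± 0.78 CPM (SD, n = 7) and 7.75 ± 2.67 CPM (n = 4), from 48 to 211 counts per pig.

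The size of the KCNJ8 difference rested partly on fibre2B pig 14. Without it the log2 fold change was -0.51 (adjusted p = 0.148), and edgeR then called 0 genes in the whole table (2436 at an unadjusted p under 0.05; no other tool was run without this pig). Every edgeR call below is therefore lost without pig 14. Without fibre1 pigs 5 and 6 together 1 of the called genes named here, SRF, stayed called, and with the abundant genes' share in the model 6 did (SRF, COL4A2, DCN, MYH6, AGTR1 and DEGS1). The KCNJ8 call was also lost without fibre1 pig 1 (adjusted p = 0.0654), pig 2 (0.0631), pig 5 (0.0619) or pig 6 (0.0593), without fibre2B pig 10 (0.0619) or pig 11 (0.0531), without pigs 5 and 6 together (0.102), and with each pig's count share on those 10 abundant genes in the model (0.0747). Among the 11 leave-outs of a single pig the log2 fold change ran from -0.90 to -0.51 and the call held in 4. Over all 23 alternatives KCNJ8 was lower in fibre1 each time and called in 13.

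**Figure D2:**
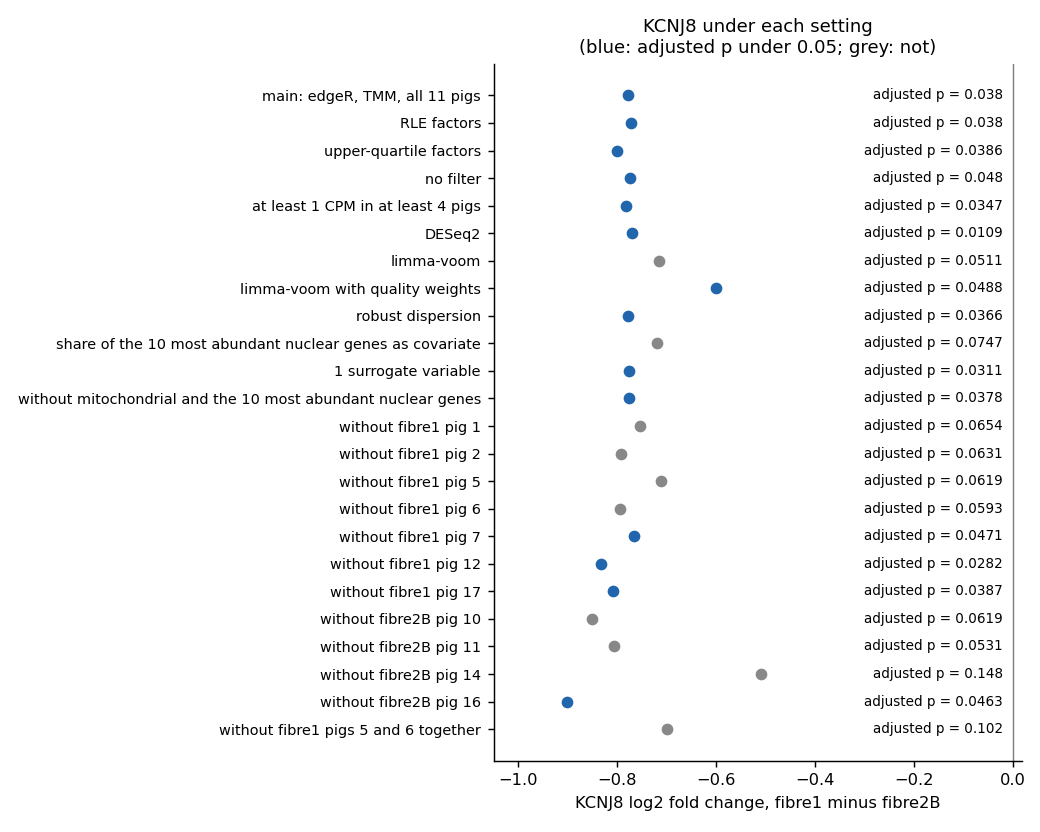
Log2 fold change of KCNJ8 (horizontal axis, fibre1 minus fibre2B) under the main setting and each of 23 alternatives (rows), with the adjusted p at the right; blue points are called and grey points are not. All points lie below 0, between -0.90 and -0.51, and the smallest difference is the one without fibre2B pig 14.

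ABCC9 (ENSSSCG00000000571) encodes SUR2, the regulatory subunit that binds nucleotides and channel-opening drugs. Its gene lies next to KCNJ8, with 0 annotated genes between them in RefSeq's Sscrofa11.1 assembly. Fibre1 pigs ran from 1.01 CPM in pig 5 through a median of 2.27 to 4.96 CPM in pig 7. Fibre2B pigs had 4.77 CPM in pig 10, 3.08 in pig 11, 3.18 in pig 14 and 4.01 in pig 16. Fibre1 spread widely across the fibre2B range: 4 of its 7 pigs were below every fibre2B pig and pig 7 was above them all.

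The ABCC9 difference was within that spread. Means were 2.68 ± 1.63 CPM (SD, n = 7) and 3.76 ± 0.79 CPM (n = 4), with a log2 fold change of -0.47 (SE 0.40; adjusted p = 0.458 by edgeR). It was -0.19 without fibre1 pigs 5 and 6 together and -0.84 by limma-voom with quality weights, and no setting called it. The ratio of KCNJ8 to ABCC9 CPM was 2.24 ± 1.16 in fibre1 and 2.19 ± 1.08 in fibre2B, and its ranges of 0.88 to 3.76 and 1.38 to 3.66 covered each other almost fully. Pig 14, highest in KCNJ8, was not high in ABCC9.

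The receptor genes came next. PDGFRB (ENSSSCG00000022741), the receptor through which PDGF-B recruits pericytes, and which fibroblasts also express, ran in fibre1 from 1.39 CPM in pig 5 through a median of 4.33 to 6.55 CPM in pig 17. The fibre2B pigs had 1.97 CPM in pig 10, 4.55 in pig 11, 3.07 in pig 14 and 2.60 in pig 16. The fibre2B values sat inside the fibre1 range, and 3 fibre1 pigs were above them all. PDGFRB had a log2 fold change of 0.43 (SE 0.37; adjusted p = 0.464 by edgeR), or 0.70 without fibre2B pig 11 and 0.27 without pig 10.

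NOTCH3 (ENSSSCG00000025176), the Notch receptor of mural cells, whose mutations cause an inherited disease of small arteries in people, ran in fibre1 from 7.91 CPM in pig 6 through a median of 10.5 to 15.7 CPM in pig 7. Fibre2B pigs had 11.0 CPM in pig 10, 10.1 in pig 11, 7.15 in pig 14 and 9.79 in pig 16. The groups overlapped, with only 3 fibre1 pigs above the highest fibre2B pig. The log2 fold change was 0.23 ± 0.21 (SE; edgeR adjusted p = 0.481).

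MCAM (ENSSSCG00000015116) encodes CD146, an adhesion molecule and co-receptor found on pericytes, smooth muscle and endothelium. Fibre1 ran from 15.3 CPM in pig 6 through a median of 18.3 to 20.7 CPM in pig 1. Fibre2B had 14.9 CPM in pig 10, 14.3 in pig 11, 12.3 in pig 14 and 15.6 in pig 16. Of the 7 fibre1 pigs 6 were above every fibre2B pig, and pig 6 alone fell just inside their range.

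MCAM was the least variable member, with a coefficient of variation of 10.9% in fibre1 and 9.81% in fibre2B. Means were 18.1 ± 1.98 CPM (SD, n = 7) and 14.3 ± 1.40 CPM (n = 4). The log2 fold change was 0.34 ± 0.13 (SE) and was not called by edgeR (adjusted p = 0.101), while DESeq2 called it (adjusted p = 0.047). The ratio of KCNJ8 to MCAM CPM, chosen after the values were seen, was 0.167 to 0.331 in fibre1 and 0.361 to 0.945 in fibre2B, so it did not overlap. The ratio of KCNJ8 to PDGFRB was 1.31 ± 0.57 in fibre1 and 2.72 ± 1.02 in fibre2B, with ranges that overlapped.

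Set side by side, the channel and receptor genes differed in opposite directions on average. KCNJ8 and ABCC9 together had a mean log2 CPM of 1.68 ± 0.53 (SD) over the 7 fibre1 pigs and 2.40 ± 0.18 over the 4 fibre2B pigs, while that of the 3 receptors was 3.17 ± 0.33 and 2.87 ± 0.18. The difference of these means, channel minus receptor, was -1.49 ± 0.41 in fibre1 and -0.47 ± 0.35 in fibre2B, a gap of -1.02 that ran from -1.15 to -0.889 when each pig was left out. In 6 of the 7 fibre1 pigs the difference was below every fibre2B pig, and pig 12, at -0.68, lay inside the fibre2B range. This contrast was chosen after the values were seen and has no test.

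**Figure D3:**
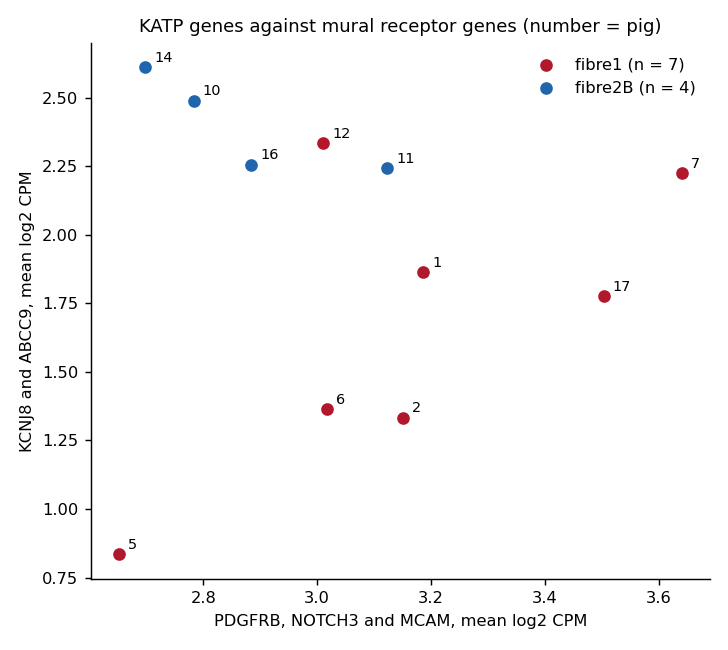
Mean log2 CPM of KCNJ8 and ABCC9 (vertical axis) against that of PDGFRB, NOTCH3 and MCAM (horizontal axis), 1 point per pig, with pig numbers. The 4 fibre2B pigs lie at 2.24 to 2.61 on the vertical and 2.70 to 3.12 on the horizontal axis, fibre1 pig 5 is lowest on both axes, and fibre1 pigs 7 and 17 have the highest receptor means.

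The contractile members did not share a direction. CNN1 (ENSSSCG00000013614), encoding calponin 1, which binds actin and dampens myosin ATPase, ran in fibre1 from 53.7 CPM in pig 7 through a median of 78.0 to 94.3 CPM in pig 2. Fibre2B pigs had 61.7 CPM in pig 10, 49.4 in pig 11, 36.4 in pig 14 and 55.8 in pig 16. In CNN1 5 of 7 fibre1 pigs were above every fibre2B pig, and pigs 1 and 7 lay inside the fibre2B range.

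Means of CNN1 were 74.7 ± 16.3 CPM (SD, n = 7) and 50.8 ± 10.8 CPM (n = 4). Its log2 fold change of 0.55 ± 0.19 (SE) was the largest positive value of the 8 members, and it was not called by edgeR (adjusted p = 0.082) but was by DESeq2 (adjusted p = 0.041).

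SMTN (ENSSSCG00000010017), encoding smoothelin, a protein of contractile smooth muscle, ran in fibre1 from 20.5 CPM in pig 2 through a median of 28.1 to 45.0 CPM in pig 1. Fibre2B had 33.7 CPM in pig 10, 23.6 in pig 11, 18.2 in pig 14 and 23.6 in pig 16. The ranges overlapped and only pig 1 exceeded every fibre2B pig. The log2 fold change was 0.27 ± 0.21 (SE; edgeR adjusted p = 0.399), and 0.15 without fibre1 pig 1.

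TAGLN (ENSSSCG00000015073), encoding transgelin or SM22α, an early marker of smooth muscle that activated fibroblasts also make, ran in fibre1 from 23.0 CPM in pig 1 through a median of 43.5 to 57.9 CPM in pig 7. Fibre2B had 30.6 CPM in pig 10, 71.0 in pig 11, 63.3 in pig 14 and 49.5 in pig 16. Pig 11 and pig 14 were above every fibre1 pig, but pig 10 was near the bottom. The log2 fold change was -0.29 ± 0.26 (SE; edgeR adjusted p = 0.476), so TAGLN had the sign of the channel genes and CNN1 and SMTN that of the receptors.

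As classes, the 5 channel and receptor genes minus the 3 contractile genes gave a mean log2 difference of -2.91 ± 0.43 (SD) over the 7 fibre1 pigs and -2.62 ± 0.11 over the 4 fibre2B pigs. The gap of -0.29 was within the spread of fibre1, whose pigs ran from -3.74 to -2.39 around the fibre2B range of -2.70 to -2.46. It was -0.16 without fibre1 pig 5, the lowest pig, and -0.58 with class medians in place of means. The mean of the 5 channel and receptor genes alone differed by -0.11, and that of the 3 contractile genes by 0.18.

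Members were then compared across pigs with the group means removed, a spread that did not enter the choice of members. Over 28 pairs and 11 pigs, 0 passed a Benjamini-Hochberg adjusted p of 0.05 (permutation within groups), with 3 pairs by Pearson and 5 by Spearman at an unadjusted p under 0.05. The highest Pearson value was that of NOTCH3 with MCAM, r = 0.84 (permutation p = 0.0035, adjusted p = 0.099) and Spearman rho = 0.77 (permutation p = 0.012, adjusted p = 0.163). It was 0.81 without fibre1 pigs 1 and 7, the 2 farthest from the median in NOTCH3. ABCC9 with NOTCH3 had r = 0.73 (permutation p = 0.028, adjusted p = 0.25; rho = 0.70, permutation p = 0.030, adjusted p = 0.17), and 0.70 without fibre1 pigs 2 and 5. By Spearman the largest value was that of KCNJ8 with SMTN, rho = -0.81 (permutation p = 0.0088, adjusted p = 0.163), where Pearson r was -0.58 (permutation p = 0.0892, adjusted p = 0.25) and -0.39 without fibre1 pig 5 and fibre2B pig 14.

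For the channel subunits no close correlation was found, which in 11 pigs does not show that they are unrelated. KCNJ8 with ABCC9 had r = 0.18 (permutation p = 0.583, adjusted p = 0.816) and rho = 0.10 (permutation p = 0.781, adjusted p = 0.948), and r = -0.13 without fibre1 pig 5 and fibre2B pig 14. Leaving out single pigs gave r from -0.17 to 0.38. Within the 7 fibre1 pigs r was 0.45, and with group means kept in it was 0.44. SMTN and TAGLN ran in opposite directions, with r = -0.72 (permutation p = 0.023, adjusted p = 0.25) and rho = -0.60 (permutation p = 0.066, adjusted p = 0.306), and r = -0.47 without fibre1 pig 1 and fibre2B pig 14. Among the 3 contractile pairs 0 were positive, but CNN1 with SMTN (r = -0.035) and CNN1 with TAGLN (r = -0.064) were close to no correlation. Positive values were found in 7 of 10 pairs within the channel and receptor genes and 6 of 15 between the classes. These counts of signs were not tested. With group means kept in, KCNJ8 and MCAM passed (r = -0.82, permutation p = 0.0015, adjusted p = 0.043), a value that holds the group difference of both genes.

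**Figure D4:**
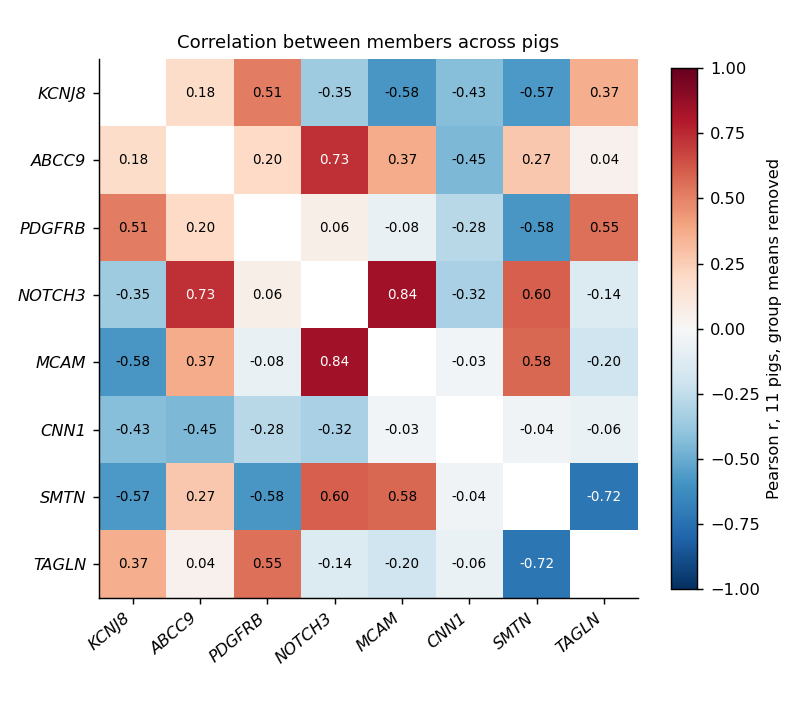
Pearson r between members over 11 pigs after group means were removed, with genes on both axes and colour and numbers giving r. NOTCH3 with MCAM (0.84) and ABCC9 with NOTCH3 (0.73) are the highest and SMTN with TAGLN (-0.72) the lowest, while KCNJ8 and ABCC9 have 0.18.

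Genes with the most similar pattern across pigs were searched among 4568 others with a symbol and at least 5 CPM on average, by the same group-centred r over 11 pigs, as a description in which the highest of many values was taken. For KCNJ8 they were STRIP2 (r = 0.93), the tyrosine kinase gene FES (0.88), AGTR1, which encodes the type 1 angiotensin II receptor of vascular smooth muscle (0.86), and the phosphatase gene PTPN9 (0.84). These 4 values fell to 0.86, 0.79, 0.74 and 0.65 without fibre2B pig 14. AGTR1 was also lower in fibre1, at 4.68 ± 1.05 against 11.1 ± 3.98 CPM (SD), with a log2 fold change of -1.24 (SE 0.22; adjusted p = 0.0159 by edgeR), and its groups did not overlap.

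For NOTCH3 the nearest genes were CTNNB1, encoding β-catenin (r = 0.90), TIE1, an endothelial receptor kinase (0.88), PIK3IP1 (0.85) and CEP85 (0.85). For TAGLN they were AP1S1 (0.87), BUB3 (0.86), the sphingolipid desaturase gene DEGS1 (0.86) and the glutamine transporter gene SLC1A5 (0.85). DEGS1 was lower in fibre1, at 9.97 to 13.96 CPM against 16.5 to 24.5 CPM (log2 fold change -0.76 ± 0.14, SE; edgeR adjusted p = 0.0159). The lowest values of these r when 1 pig was left out were 0.78 to 0.86 for NOTCH3 and 0.74 to 0.83 for TAGLN.

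The wider lists were written with earlier results known. Of 33 other mural-cell genes 19 were tested, and by edgeR 1 was higher in fibre1, 0 were higher in fibre2B and 18 did not pass, with 13 negative values and a median of -0.25 against 0.0073 over all genes tested. At an unadjusted p under 0.05 edgeR had 8 of the 19, against 28.9% of all genes tested. DESeq2 called 1 of the 19 in each direction, and limma-voom called 1 higher in fibre1 and 0 higher in fibre2B. COL4A2, a basement membrane collagen chain, rose in fibre1, with 102 ± 18.4 against 59.5 ± 9.84 CPM (log2 fold change 0.78 ± 0.17, SE; edgeR adjusted p = 0.020). LAMA4, a laminin chain of vessel basement membrane, had -0.69 ± 0.21 (edgeR adjusted p = 0.057), and DESeq2 called it (adjusted p = 0.0236), as did 6 of 23 alternatives in all. The defining pericyte genes went both ways without a call: the proteoglycan gene CSPG4 (NG2) had 0.59 ± 0.22, the peptidase gene ANPEP -1.06 ± 0.49, HIGD1B -0.88 ± 0.35 and NDUFA4L2 -0.032 ± 0.35 (adjusted p from 0.097 to 0.963).

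Of 37 other smooth-muscle contractile genes 17 were tested and 16 did not pass by edgeR, with 8 positive and 9 negative values and a median of -0.17. By edgeR 1 was higher in fibre2B, against 4.63% of all genes tested, and 0 higher in fibre1, against 4.38%. DESeq2 called 1 of the 17 higher in fibre1 and 4 higher in fibre2B, and limma-voom called 0. At an unadjusted edgeR p under 0.05 were 8 of the 17, against 28.9% of all genes tested. ITGA8, an integrin chain of mural and other mesenchymal cells, was lower in fibre1, with 0.63 ± 0.19 against 2.01 ± 1.40 CPM (log2 fold change -1.65 ± 0.40, SE; edgeR adjusted p = 0.029), or -1.08 without fibre2B pig 14 (adjusted p = 0.134). The level of ITGA8 was low, at 6 to 70 counts per pig, and 14 of 22 alternatives called it. ACTA2 had 0.054 ± 0.22, with either sign depending on the setting, and MYH11 had 0.75 ± 0.69. The tropomyosin genes TPM1 (0.39 ± 0.27) and TPM2 (0.60 ± 0.27) were at 8131 to 33434 CPM on average, where skeletal fibres also express them. Other uncalled genes, named after their values were seen, went both ways. CALD1 had -0.67 ± 0.21, TPM4 -0.62 ± 0.24, CNN3 -0.61 ± 0.21 and VCL -0.50 ± 0.16, while PPP1R12B had 1.55 ± 0.54 (edgeR adjusted p from 0.064 to 0.107).

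**Figure D5:**
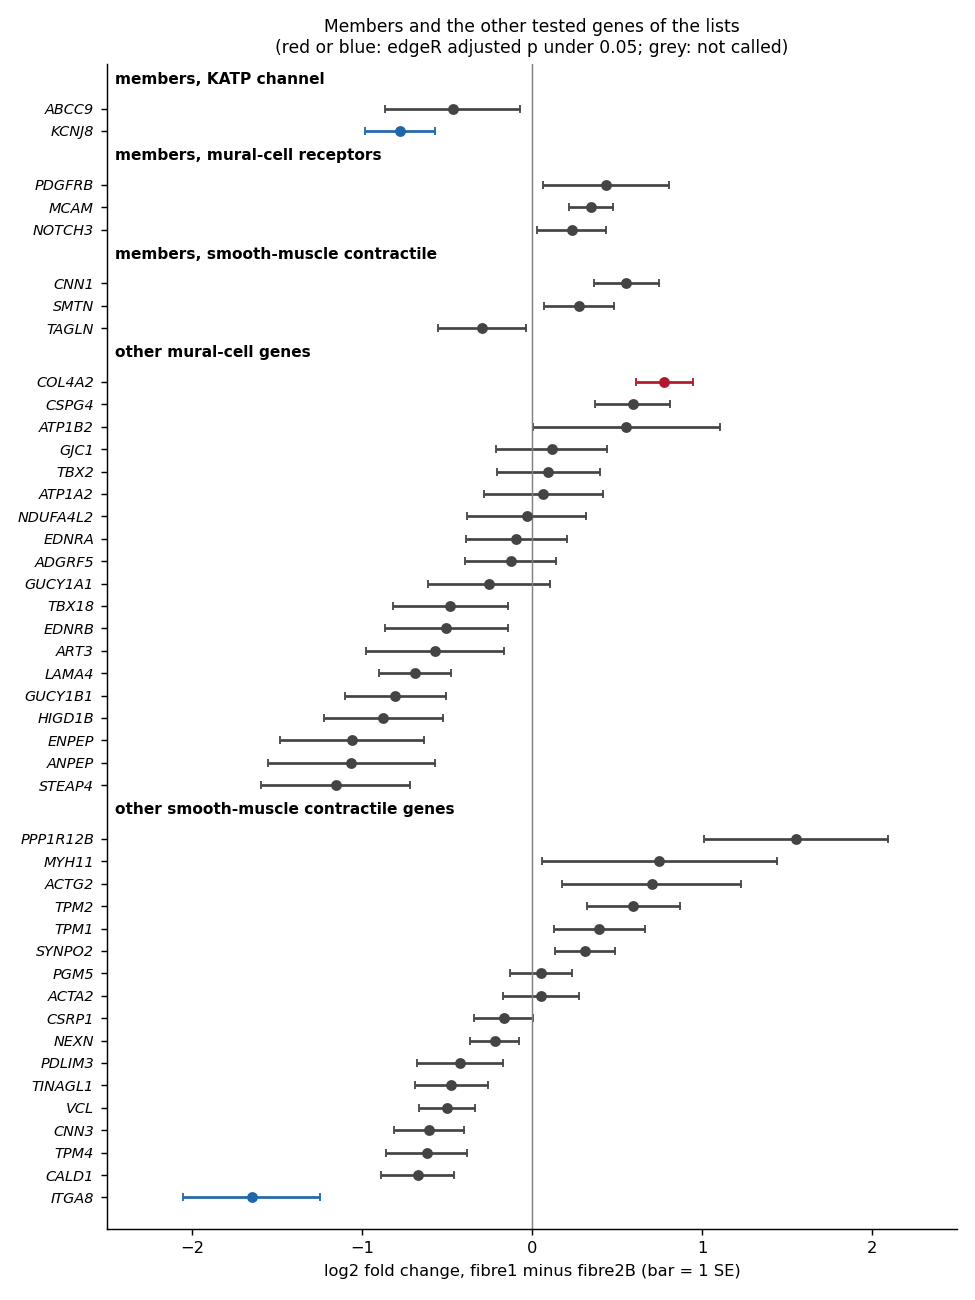
Log2 fold change, fibre1 minus fibre2B (horizontal axis), with 1 SE for the 8 members and the 36 other tested genes of the mural and contractile lists (rows); blue or red points are called and grey points are not. KCNJ8 and ITGA8 lie to the left and COL4A2 to the right of 0 among the called genes, and the channel members lie left and the receptor members right.

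The channel family could be followed little further. KCNJ11 and KCNJ2 had no row with that symbol, and ABCC8, the sulfonylurea receptor of pancreatic beta cells, had 1 to 31 counts per pig and did not pass the filter. Of 7 other KATP and Kir channel genes listed, 0 were tested.

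Upstream of PDGFRB, PDGFB had no row with that symbol, and its sister receptor gene PDGFRA had 0 to 5 counts per pig. Of 11 PDGF signalling genes 8 were tested and 0 passed by edgeR, DESeq2 or limma-voom. At an unadjusted edgeR p under 0.05 were 2 of the 8, against 28.9% of all genes tested. The 8 included the adaptor gene GRB2 (log2 fold change 0.27 ± 0.12, edgeR adjusted p = 0.139) and PIK3R1, a regulatory subunit of PI3 kinase (0.029 ± 0.23, either sign). Of 27 Notch pathway genes 19 were tested, 7 of them at an unadjusted edgeR p under 0.05, against 28.9% of all genes tested. The median of the 19 was -0.064. By edgeR 3 were called higher in fibre2B, against 4.63% of all genes tested, and 0 higher in fibre1, against 4.38%. DESeq2 called 3 and 1, and limma-voom 2 and 0. HEY1, a transcriptional target of Notch, had 3.74 ± 1.67 against 7.11 ± 0.74 CPM (-0.93 ± 0.26, edgeR adjusted p = 0.044). ADAM10, the protease that cleaves Notch at the surface, had -0.74 ± 0.20 (edgeR adjusted p = 0.040). The ubiquitin ligase gene DTX3L had -1.56 ± 0.43 (edgeR adjusted p = 0.039), or -1.08 without fibre2B pig 14. The level of DTX3L was low, at 0.41 ± 0.18 against 1.24 ± 0.80 CPM and 4 to 41 counts per pig, and 10 of 22 alternatives called it.

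The 4 ligand genes tested and the 2 genes of highest CPM in the Notch list were not called by edgeR. The ligands differed in sign: JAG1 had -0.53 ± 0.26, DLL4 -0.045 ± 0.29 with either sign, JAG2 0.86 ± 0.27 and DLL1 0.17 ± 0.18 (log2 fold changes with SE; edgeR adjusted p from 0.063 for JAG2 to 0.938 for DLL4). JAG2 and DLL1 were named after their values were seen, and DESeq2 called JAG2 (adjusted p = 0.0215), as did 5 of 23 alternatives in all. The γ-secretase subunit genes APH1A and NCSTN had -0.084 ± 0.12 and 0.10 ± 0.14 (edgeR adjusted p = 0.671 and 0.654). The groups overlapped in HEY1, which was called in 11 of 23 alternatives and in 2 of the 11 leave-outs of a single pig. On average HEY1 was lower in fibre1, while NOTCH3 itself had a positive, uncalled value. Whether these 2 differences differ from each other was not tested.

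Of 22 regulators that act through serum response factor and related pathways 14 were tested, and edgeR called 1 higher in each group, with 10 of 14 values negative and a median of -0.38. SRF, the factor that binds promoters of contractile genes, averaged 80.2 ± 16.5 against 34.4 ± 3.42 CPM (SD), fibre1 against fibre2B, with a log2 fold change of 1.22 (SE 0.17; adjusted p = 0.0128 by edgeR). The small GTPase gene RHOA had -0.084 ± 0.11 (edgeR adjusted p = 0.640). MYOCD had no row with that symbol.

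Markers of neighbouring cells were measured beside the KCNJ8 difference. Of 12 fibroblast markers 7 had a row and 6 were tested, with 0 positive and 6 negative values and a median of -0.80. DCN, LUM and FAP, the gene of a fibroblast surface protease (log2 fold change -0.79 ± 0.22, edgeR adjusted p = 0.041), were higher in fibre2B, as KCNJ8 was. That is 3 of 6 called higher in fibre2B by edgeR, against 4.63% of all genes tested. DESeq2 and limma-voom also called 3 each. An unadjusted edgeR p under 0.05 was found for 4 of the 6, against 28.9% of all genes tested. COL3A1 had -0.80 ± 0.33 and COL1A2 -0.48 ± 0.23, neither called by edgeR; with 1 surrogate variable COL3A1 was called (adjusted p = 0.0378). The summed level of the list was 479 to 988 CPM in fibre1 and 755 to 1460 CPM in fibre2B, and of the defining fibroblast genes PDGFRA was at 0 in 2 pigs. Of 13 endothelial markers 9 had a row and were tested, with 5 positive and 4 negative values. At an unadjusted edgeR p under 0.05 were 4 of the 9, against 28.9% of all genes tested. The edgeR test called 0 of the 9, limma-voom 0, and DESeq2 3 higher in fibre1 and 1 higher in fibre2B. Their summed level was 162 to 228 CPM in fibre1 and 140 to 194 CPM in fibre2B.

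PECAM1, the endothelial marker with the highest CPM, had 74.2 ± 23.7 against 70.1 ± 17.5 CPM (log2 fold change 0.083 ± 0.24, either sign), and EGFL7 0.53 ± 0.17 (edgeR adjusted p = 0.063). DESeq2 called EGFL7 (adjusted p = 0.0283), as did 4 of 23 alternatives in all. Named after their values were seen, the angiopoietin receptor gene TEK had -0.74 ± 0.25, the direction of KCNJ8, and TIE1 0.78 ± 0.24 with groups that did not overlap (edgeR adjusted p = 0.078 and 0.058; DESeq2 called both). The summed endothelial ranges overlapped, and all 6 tested fibroblast markers, 3 of them called, had the direction of KCNJ8. The part of the fibroblast level in the KCNJ8 difference was not tested, and no fit run here held the fibroblast level.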

How the data were processed

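The authors deposited expected counts, RSEM-type estimates that are not normalized and are stored as whole numbers, with 1 column per pig. The submitters' processing notes name CASAVA 1.8.2, FastQC, STAR, RSEM, edgeR, DESeq2 and Sscrofa10.2, with no roles. Strand use, and how the 5 technical repetitions were combined, are not given in the sources used here. The isoform table was not analysed here. Columns were joined to pigs by the number in the sample title, and no number occurs in both groups. There were 0 columns of other samples.

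Gene symbols were taken from a list pairing pig Ensembl IDs with names. Counts were rounded, filtered with filterByExpr and tested with edgeR 4.0.16 (R 4.3.3), TMM factors and a quasi-likelihood F test on group, with Benjamini-Hochberg adjustment over 11329 genes at 0.05. Fold changes are log2, fibre1 minus fibre2B, and standard errors are its absolute value over the root of F. Correlations used log2 CPM with a prior count of 0.5 and 100000 permutations within groups.

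The members, lists and naming rule were chosen with earlier results of these data known. The rule named all members, called and most abundant genes of each list, fixed ligands, regulators and markers, and 4 pattern-like genes for each of KCNJ8, TAGLN and NOTCH3. One gene that the rule names is not reported here. Alternatives were RLE and upper-quartile factors, 2 filters, DESeq2 1.42.0, limma-voom (limma 3.58.1) with and without quality weights, robust dispersion, a composition covariate, 1 surrogate variable (sva 3.50.0), fewer genes, and pigs left out. In simulated data of this comparison over 11329 genes, 48% of genes changed 2-fold and 89% of those changed 4-fold were recovered, with 5.52% of calls false. The simulated counts were drawn independently around a common mean per gene, with 200 genes changed and no outlying pig. These shares may therefore not hold for the real pigs.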

Additional observations from a re-analysis of the deposited data

Results flagged for a closer look

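Each member and each class measure was checked for a pig far from the others in both groups, 36 checks in all, of which chance alone passes about 1 in 20. One was found. The ratio of TAGLN to CNN1 CPM was 1.08 in fibre1 pig 7, while the next fibre1 pig had 0.695 and the fibre1 median was 0.461. The fibre2B pigs ran from 0.496 to 1.74 in this ratio. Pig 7 was both the highest fibre1 pig in TAGLN (57.9 CPM) and the lowest in CNN1 (53.7 CPM).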

How the results depend on the processing

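No paired analysis was possible because no replicate number occurs in both groups. No member changed the sign of its log2 fold change under any alternative run. DESeq2 called 908 genes higher in fibre1 and 832 higher in fibre2B (496 and 525 by edgeR), limma-voom with quality weights 861 and 887, 1 surrogate variable 790 and 838, the share of the 10 abundant genes as covariate 257 and 203, and leaving out fibre1 pigs 5 and 6 together 18 and 10. Higher in fibre1 were 48.6% of calls by edgeR, 55.9% with the covariate, 64.3% without pigs 5 and 6 and 37.3% without fibre2B pig 16. Leaving out single pigs gave 0 to 803 genes higher in fibre1 and 0 to 745 higher in fibre2B, with 0 in both without fibre2B pig 14 and the highest counts without fibre1 pig 12. The members called were 3 by DESeq2, 0 by limma-voom, 0 with the covariate, 0 without pigs 5 and 6, and 0 to 1 without single pigs. Correlations without removal of group means gave 1 pair past the adjusted p, against 0. The cause of these changes was not tested.

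Genes near 0 changed sign. By limma-voom with quality weights ACTA2 had -0.15, NDUFA4L2 0.0178 and PECAM1 -0.0379 (log2). DLL4 had 0.0177 by limma-voom and 0.00936 with the covariate. MYL11 had -0.106 with the covariate and -0.0675 without pigs 5 and 6. PIK3R1 had -0.0113 with upper-quartile factors, -0.0869 with the covariate and -0.00669 with 1 surrogate variable. Without single pigs the ranges were -0.129 to 0.208 for ACTA2, -0.283 to 0.181 for DLL4, -0.215 to 0.295 for NDUFA4L2, -0.0268 to 0.22 for PECAM1, -0.021 to 0.19 for MYL11 and -0.0756 to 0.266 for PIK3R1. Depth limits the lowest members most: ABCC9 had 16 to 180 counts per pig and PDGFRB 22 to 137.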
